A study of Gallus gallus with 6 samples.

Results

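Collagens are the main structural proteins of the extracellular matrix. This account compares every collagen alpha chain gene between undifferentiated chicken primordial germ cells (PGCs) and adherent somatic differentiated cells of PGC cultures. The groups are separate libraries and not a time course. Below, rose and fell mean higher and lower in the somatic differentiated group. The members were all genes whose symbol has the form COL, a type number, A and a chain number: 26 of the 23873 genes in the table. RefSeq lists 41 such symbols in chicken, and the 15 without a symbol in the table were not analysed here. PGCs are the embryonic precursors of eggs and sperm. They came from the blood of embryos at Hamburger and Hamilton stage 16 and were cultured in medium with chicken serum, 10 ng/mL human FGF2, the kinase inhibitor H1152 at 0.2 μM and the myosin inhibitor Blebbistatin at 0.2 μM. The 3 undifferentiated libraries hold the suspension cells of such cultures. The 3 somatic differentiated libraries hold adherent cells, enriched by drawing off the suspended ones and kept growing for some weeks. The labels give both groups the same culture and name no genotype, passage or sex, and they mention PGC lines without saying which library came from which.

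A collagen is built from alpha chains that wind around each other in a triple helix of Gly-X-Y repeats, either as copies of a single chain or as different chains in a fixed proportion. Fibrillar collagens (types I, II, III, V and XI) form the cables of connective tissue, type IV forms the mesh of basement membranes, and type VI forms beaded filaments near cells. FACIT collagens (types IX, XII, XIV and others) sit on the surface of fibrils, and transmembrane collagens (types XIII, XVII and XXV) are anchored in the cell membrane. In the vertebrate embryo, fibrillar collagens are typical products of mesenchyme, and migrating PGCs move through a matrix that other cells lay down.

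Expression was given as TPM, an abundance relative to all transcripts of the library and corrected for their length, so that levels of different genes in a library can be set side by side. Between 12342 and 12993 genes reached 1 TPM per library. Over the 12996 genes tested, the Pearson correlation across genes was 0.962 to 0.986 within undifferentiated, 0.955 to 0.962 within somatic differentiated and 0.856 to 0.898 between groups. The 6 PGC markers (DDX4, DAZL, DND1, NANOG, POU5F3 and PRDM14) were all called lower but remained present: they summed to 5785 to 6302 TPM in undifferentiated and 1499.5 to 2129 TPM in somatic differentiated libraries. Fibroblast and mesenchyme markers, with 5 of 7 tested called higher and PRRX1 called lower, summed to 84.4 to 95.9 and 594 to 719 TPM. Of all genes tested, 13.2% were called higher and 7.77% lower. Of the blood markers listed, HBA1 was at 0 in every library, and all 5 summed to at most 3.79 TPM in any library. In such bulk samples, fewer cells of a type and less RNA per cell cannot be told apart. The part that remaining PGCs, or other cells within the undifferentiated libraries, have in the levels below was not tested.

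Collagen transcripts as a group were higher in somatic differentiated cells, although each undifferentiated library held COL1A2 and COL2A1 at over 100 TPM. The 26 genes summed to 660, 502 and 611 TPM in undifferentiated libraries 1 to 3 and to 2924, 1673 and 3789 TPM in somatic differentiated libraries 1 to 3. The groups did not overlap, and the means differed 4.73-fold, at 0.0591% ± 0.00811 and 0.2795% ± 0.106 of all TPM (SD, n = 3). A mean of at least 10 TPM was reached by 9 collagens in undifferentiated and by 19 in somatic differentiated cells. The abundance filter was passed by 23 collagens, of which 22 had at least 1 TPM in the mean of each group, and COL17A1 passed through its level in undifferentiated cells. For low genes, a change of log2(TPM + 1) understates the change of TPM.

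**Figure D1:**
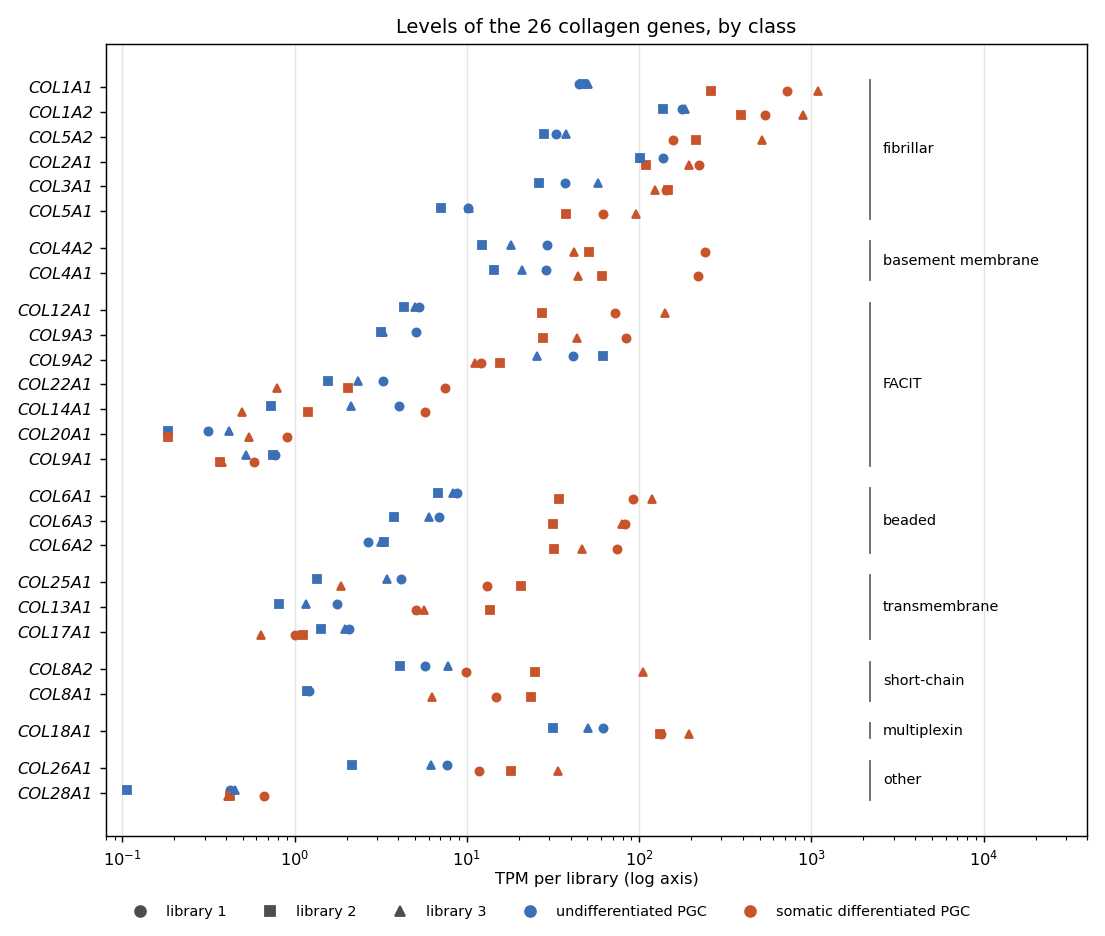
TPM of each of the 26 collagen genes (rows, grouped by class) in each library, on a log axis; blue marks are undifferentiated and orange marks somatic differentiated PGCs, and the marker shape gives the library number. Most rows have the orange marks to the right. COL9A2 has them to the left (11.2 to 15.5 against 25.5 to 61.5 TPM), and so has COL17A1 (0.640 to 1.12 against 1.43 to 2.06 TPM). The colours overlap for COL2A1, COL9A1, COL14A1, COL20A1, COL22A1, COL25A1 and COL28A1.

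Of the 23 tested, 16 were called higher in somatic differentiated cells and 1, COL9A2, was called lower (limma, adjusted p under 0.05 over all genes and a log2 change of at least 1). That is 69.6% of the tested collagens called higher, where 13.2% of all tested genes were, and 4.35% called lower, where 7.77% were. At an adjusted p under 0.05 with no minimum change, the same 16 were higher and COL9A2 lower, where 17.9% and 22.0% of all genes were. The remaining 6 were COL2A1, COL8A2, COL14A1, COL17A1, COL22A1 and COL25A1. The median log2 change was 1.99, against -0.11 over all genes tested. Somatic differentiated values all lay above undifferentiated ones for 17 of the 23, where 25.0% of all genes showed this, and all below for COL9A2 and COL17A1, where 30.6% of all genes did. By size of change, 5 collagens were among the 100 largest increases of the 12996 genes: COL1A1 at rank 33, COL6A2 at 34, COL12A1 at 49, COL9A3 at 78 and COL6A3 at 97.

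**Figure D2:**
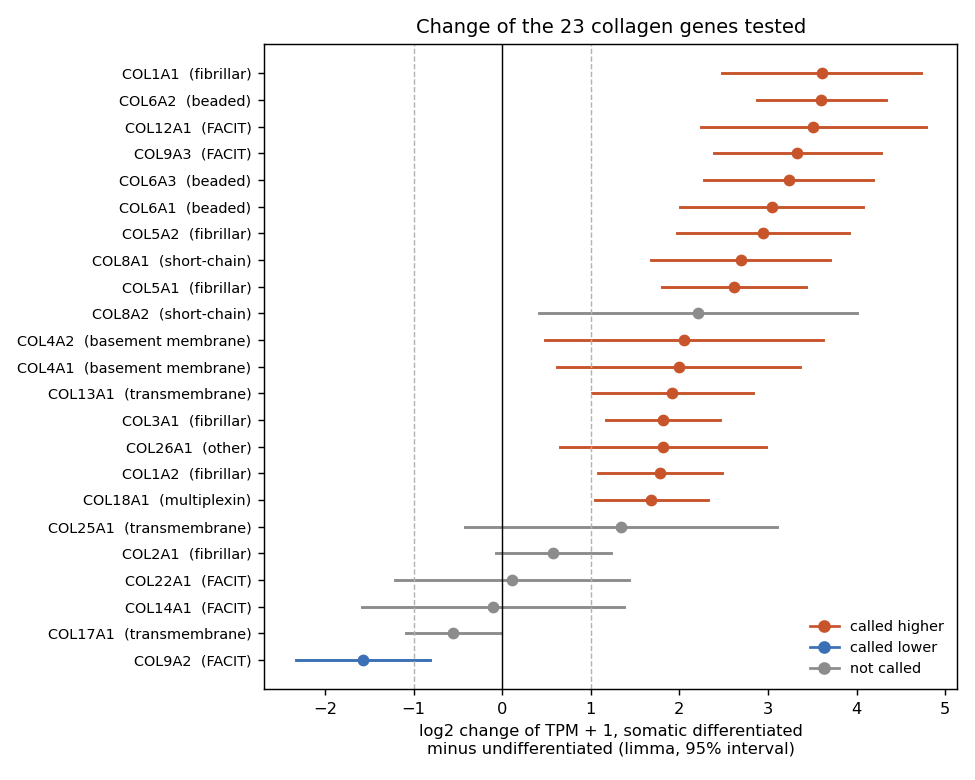
Log2 change of TPM + 1, somatic differentiated minus undifferentiated, with its limma 95% interval, for the 23 collagens tested; dashed lines mark the minimum change of 1 in each direction. Collagens called higher run from COL18A1 at 1.68 to COL1A1 at 3.61, and COL9A2 lies at -1.57 on the other side of 0.

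Type I collagen, the main fibrillar collagen of skin, bone and tendon, is normally a trimer of chains encoded by COL1A1 and COL1A2. COL1A1 (chromosome 27, 5538288 to 5555467) measured 44.4, 47.1 and 50.7 TPM in undifferentiated libraries 1 to 3, and 721, 259 and 1087 TPM in somatic differentiated libraries 1 to 3. It rose by 3.61 on the log2 scale (SE 0.47, limma adjusted p 0.00223). The change was 4.196 with somatic differentiated library 2 left out and 3.16 with library 3 left out. COL1A2 (chromosome 2, 23572966 to 23610978) measured 178, 137 and 185 TPM and then 535, 389 and 895 TPM, and rose by 1.78 (SE 0.30, limma adjusted p 0.00459). The levels of the chains thus lay apart in the undifferentiated group, where COL1A2 was the most abundant collagen. They were closer to each other in the somatic differentiated group. For both chains the groups were clearly separate, and somatic differentiated library 3 was highest and library 2 lowest.

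Types III and V, which join type I in mixed fibrils, rose as well. COL3A1 (chromosome 7, 618031 to 671774), the chain of the type III homotrimer of skin and vessels, measured 37.2, 26.1 and 57.5 TPM and then 142, 147 and 123 TPM (log2 change 1.81, SE 0.27, limma adjusted p 0.00331). Its somatic differentiated values were the tightest of the collagens called higher, the highest being 1.199 times the lowest. Type V collagen initiates the assembly of type I fibrils. Its gene COL5A1 (chromosome 17, 7734269 to 7862385) measured 10.1, 7.11 and 10.2 TPM and then 61.6, 37.3 and 95.97 TPM (2.62, SE 0.34, limma adjusted p 0.0022). The partner COL5A2 (chromosome 7, 504980 to 619779) measured 32.8, 28.1 and 37.8 TPM and then 157, 214 and 516 TPM (2.95, SE 0.41, limma adjusted p 0.00263). In the somatic group COL5A2 was highest in library 3, which held more than the other libraries together. COL5A2 and COL3A1 overlap by 1749 bases at their 3′ ends on opposite strands. The library kit keeps strand, but whether the counting used it is not given, so reads in that stretch could belong to either gene.

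COL2A1 (chromosome 33, 7292614 to 7310596), the fibrillar collagen of cartilage and notochord, differed from the other fibrillar genes. It measured 137, 101 and 102 TPM in undifferentiated libraries and 222, 109 and 195 TPM in somatic differentiated ones. The groups overlapped, since somatic differentiated library 2 lay below undifferentiated library 1, and the log2 change was 0.58 (95% interval -0.08 to 1.23, limma adjusted p 0.136). Leaving out that library gave 0.89 (adjusted p 0.0164), still under the minimum change. COL2A1 was nevertheless the second most abundant collagen in the undifferentiated group. All 6 fibrillar genes were tested and 5 were called higher, with a class median of 2.21. Of all tested genes 13.2% were called higher, and their median was -0.11.

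Type IV collagen, the network of every basement membrane, was represented by COL4A1 and COL4A2. These genes lie head to head on chromosome 1, COL4A1 at 140138678 to 140249096 on the minus strand and COL4A2 at 140248816 to 140390143 on the plus strand, and the annotated genes overlap by 281 bases. COL4A1 measured 28.6, 14.3 and 20.8 TPM in undifferentiated libraries and 221, 61.1 and 44.3 TPM in somatic differentiated ones (log2 change 1.99, SE 0.58, limma adjusted p 0.0319). COL4A2 measured 29.2, 12.2 and 18.1 TPM and then 241, 51.2 and 41.6 TPM (2.05, SE 0.66, limma adjusted p 0.0456). In both genes all somatic values lay above all undifferentiated ones, but somatic differentiated library 1 held several times the level of the others. Leaving that library out gave changes of 1.303 and 1.26 (limma adjusted p 0.0309 and 0.0469). These calls depended on single libraries. COL4A1 missed the threshold when undifferentiated library 2 or 3 was left out (adjusted p 0.0802 and 0.0801). COL4A2 missed it when any undifferentiated library was left out (0.0559, 0.1096 and 0.1079 for libraries 1 to 3) and when somatic differentiated library 2 was (0.0564).

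Type VI collagen forms the beaded filaments that link cells to the surrounding matrix. All 3 of its genes in the table were called higher, where 13.2% of all tested genes were. The class median was 3.23, against -0.11 over all genes tested. COL6A1 (chromosome 7, 6741231 to 6760769) measured 8.76, 6.76 and 8.25 TPM in undifferentiated libraries and 92.6, 33.998 and 119 TPM in somatic differentiated ones (log2 change 3.04, SE 0.44, limma adjusted p 0.0029). COL6A2 (chromosome 7, 6782467 to 6808501) measured 2.68, 3.30 and 3.17 TPM and then 74.0, 31.9 and 46.8 TPM (3.60, SE 0.31, limma adjusted p 0.000628). COL6A3 (chromosome 7, 4846504 to 4899768), the largest of the chains and the one that carries most of the globular domains, measured 6.89, 3.76 and 6.02 TPM and then 83.1, 31.5 and 79.3 TPM (3.23, SE 0.40, limma adjusted p 0.00189). Somatic differentiated library 2 was the lowest for all of these chains, yet remained several-fold above every undifferentiated library.

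FACIT collagens moved apart from each other. COL12A1 (chromosome 3, 80804845 to 80905035), whose product coats type I fibrils in tendon and fascia, measured 5.27, 4.29 and 4.96 TPM in undifferentiated libraries and 72.4, 27.1 and 142 TPM in somatic differentiated ones (log2 change 3.51, SE 0.54, limma adjusted p 0.00352). Leaving out somatic differentiated library 2 gave 4.14, and leaving out library 3 gave 2.96. Like COL1A1 and COL1A2, it was highest in somatic differentiated library 3 and lowest in library 2.

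Type IX collagen, a partner of type II fibrils in cartilage, is a trimer of the products of COL9A1, COL9A2 and COL9A3, and these genes went in different directions. COL9A3 (chromosome 20, 8340728 to 8372146) rose from 5.06, 3.18 and 3.24 TPM to 84.2, 27.8 and 43.5 TPM (log2 change 3.33, SE 0.40, limma adjusted p 0.00169). COL9A2 (chromosome 23, 5019801 to 5030095), which the table types as a pseudogene, fell from 41.2, 61.5 and 25.5 TPM to 12.1, 15.5 and 11.2 TPM (-1.57, SE 0.32, limma adjusted p 0.00892). It was the only collagen called lower, here and under each of the 16 alternatives tried. COL9A1 stayed under 1 TPM in all 6 libraries, at 0.522 to 0.7697 TPM in undifferentiated and 0.369 to 0.577 TPM in somatic differentiated cells, and was not tested. Of the type IX genes, COL9A2 thus had the highest level in each undifferentiated library and COL9A3 in each somatic differentiated one.

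The other FACIT genes were weakly expressed. COL14A1, which associates with type I fibrils, measured 4.02, 0.731 and 2.12 TPM and then 5.685, 1.19 and 0.492 TPM, and COL22A1, a collagen of tissue junctions, measured 3.25, 1.57 and 2.33 TPM and then 7.498, 2.03 and 0.787 TPM. In both, somatic differentiated library 1 was the highest of all 6 libraries and library 3 the lowest, so that the groups overlapped. Neither was called, at -0.10 and 0.11 with limma adjusted p of 0.907 and 0.887, and the sign of both depended on the libraries and settings used. COL20A1 stayed under 1 TPM in every library and was not tested.

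Transmembrane collagens were low and mixed. COL13A1 (chromosome 6, 11712568 to 11751772), a collagen of cell adhesion sites and the neuromuscular junction, measured 1.77, 0.807 and 1.17 TPM and then 5.08, 13.7 and 5.59 TPM (log2 change 1.92, SE 0.38, limma adjusted p 0.00842). COL25A1 (chromosome 4, 37577006 to 37642586) measured 4.16, 1.34 and 3.41 TPM and then 13.0, 20.7 and 1.85 TPM. Its groups overlapped through somatic differentiated library 3, and its change of 1.34 was not called (limma adjusted p 0.1896). Leaving that library out gave 2.21 (adjusted p 0.0143), and leaving out library 2 gave 0.75 (0.459). With array weights COL25A1 was called as well (1.47, adjusted p 0.0371). COL17A1, the hemidesmosome collagen of epithelia, measured 2.06, 1.43 and 1.95 TPM and then 1.005, 1.12 and 0.6398 TPM. It was lower in all somatic differentiated libraries without passing the test (-0.55, limma adjusted p 0.0931).

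Short-chain collagens of type VIII, found in vessel walls and in the membrane under the corneal endothelium, were low in undifferentiated libraries. COL8A1 (chromosome 1, 85383662 to 85470351) measured 1.21, 1.17 and 1.18 TPM in undifferentiated libraries and 14.8, 23.5 and 6.299 TPM in somatic differentiated ones (log2 change 2.69, SE 0.43, limma adjusted p 0.00395). COL8A2 (chromosome 23, 4279194 to 4285138) measured 5.74, 4.06 and 7.797 TPM and then 9.92, 24.7 and 105 TPM. Its groups did not overlap, but the somatic values spanned a 10.6-fold range and the change of 2.21 (95% interval 0.42 to 4.01, limma adjusted p 0.0545) just missed the threshold. Leaving out somatic differentiated library 1 gave 2.96 (0.0192), which is called, and leaving out library 3 gave 1.32 (0.0678). COL8A2 was also called with a pseudocount of 0.1 (adjusted p 0.0495), with median of ratios scaling (0.0429) and with the replicate block (0.0315). The type VIII genes differed in the place of somatic library 3, which was lowest for COL8A1 and highest for COL8A2.

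COL18A1 (chromosome 7, 6651455 to 6681167), the multiplexin of basement membranes whose end fragment is endostatin, is also typed as a pseudogene in the table. It measured 61.4, 31.7 and 50.5 TPM and then 134, 131 and 194 TPM (log2 change 1.68 with an SE of 0.27, limma adjusted p 0.00409), and ranked among the more abundant collagens of both groups. COL26A1 (chromosome 19, 3673296 to 3828129), first described in the testis and ovary of the mouse, measured 7.64, 2.15 and 6.196 TPM and then 11.8, 18.1 and 33.6 TPM (1.81, SE 0.49, limma adjusted p 0.0249). COL26A1 missed the threshold on leaving out undifferentiated library 3 (adjusted p 0.0525), somatic differentiated library 2 (0.0589) or somatic differentiated library 3 (0.0727). COL28A1 stayed under 1 TPM, at 0.107 to 0.659 TPM over the 6 libraries, and was not tested.

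The sums per class were then compared, to show where the collagen transcripts lay. Fibrillar genes summed to 439.7, 346 and 443 TPM in undifferentiated and 1838, 1156 and 2912 TPM in somatic differentiated libraries, a 4.81-fold difference between the means. Type VI genes gave the widest difference, 11.9-fold, from 16.5 ± 2.39 to 197 ± 86.5 TPM (SD, n = 3). The short-chain sum differed 8.71-fold, from 7.05 ± 1.88 to 61.4 ± 44.9 TPM, and the basement membrane sum 5.35-fold, from 41.1 ± 15.7 to 219.97 ± 209.84 TPM. Without somatic differentiated library 1, the log2 difference of the basement membrane sum went from 2.05 to 1.31. The FACIT sum, with COL9A2 included, differed least, 2.67-fold, from 57.1 ± 16.8 to 152 ± 67.9 TPM. This sum mixed opposite changes. COL9A2, called lower and typed as a pseudogene, held 42.7 TPM of the undifferentiated mean and 12.9 TPM of the somatic differentiated one. COL12A1 and COL9A3 rose, the latter from 3.82 to 51.8 TPM in the means. Without COL12A1 the log2 difference went from 1.32 to 0.40 and the groups overlapped (exact permutation p = 0.5). In the nearest libraries of the groups, COL9A2 held 61.5 of 72.2 TPM (undifferentiated library 2) and 15.5 of 74.2 TPM (somatic differentiated library 2). The sum without COL9A2 was not computed, so the place of the FACIT class among the classes holds only with this gene included. In all 8 classes the somatic sums lay above the undifferentiated ones, by as little as 1.012-fold between the nearest libraries for the transmembrane class and 1.03-fold for FACIT. For each class the two-sided exact permutation p was 0.1 (0.1 after Benjamini-Hochberg adjustment over the 8 classes), the smallest that 3 libraries against 3 allow.

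**Figure D3:**
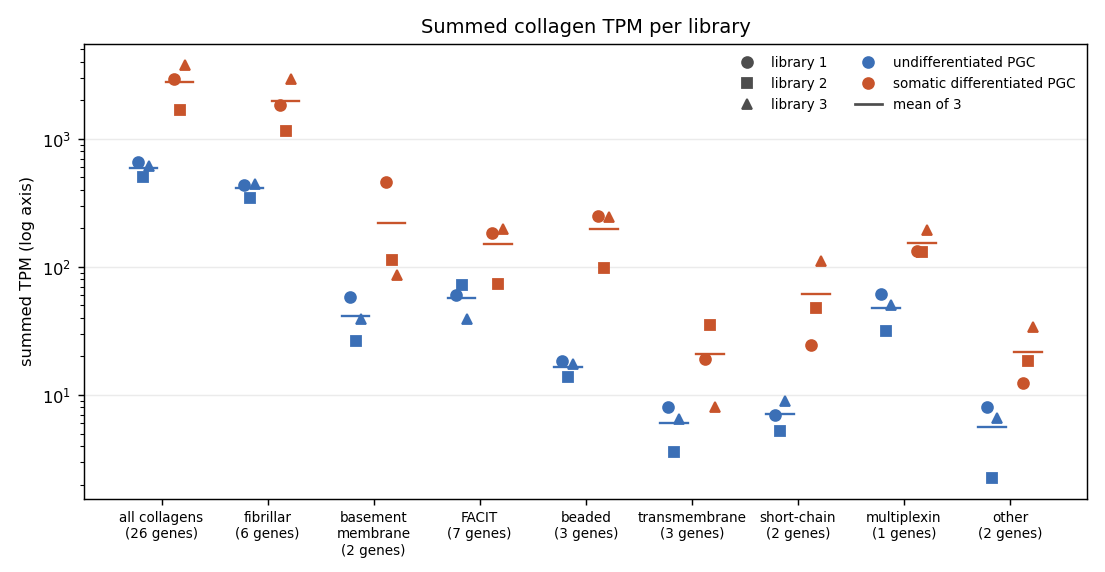
Summed TPM of the collagen genes of each class in each library, on a log axis; points are libraries and horizontal lines the mean of 3. Somatic differentiated sums lie above undifferentiated ones in every class. The gap is widest for the beaded class (97.4 TPM and above against 18.3 TPM and below). Values nearly touch for the transmembrane class and for the FACIT class, whose sum includes COL9A2.

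Shares were taken of the summed TPM of the 26 collagens. The 15 RefSeq symbols missing from the table, COL11A1 among them, are not in this sum. COL1A2 was a leading gene in both groups, at 28.2% ± 1.80 and 21.7% ± 2.97 (SD, n = 3), while other shares shifted. COL1A2 and COL2A1 together made up 47.8%, 47.4% and 46.9% of collagen TPM in the undifferentiated libraries. Their joint share in the somatic differentiated libraries was 25.9%, 29.8% and 28.8%. The share of COL2A1 alone went from 19.2% ± 2.19 to 6.42% ± 1.23 and that of COL1A1 from 8.14% ± 1.34 to 22.9% ± 6.75 (SD, n = 3), with no overlap between groups in either. COL9A2 held 7.56% ± 4.21 and then 0.546% ± 0.336. The 6 fibrillar genes of the table together kept a like share, 69.4% ± 2.96 and 69.6% ± 7.003. The 3 type VI genes went from 2.795% ± 0.0521 to 6.94% ± 1.42. These shares are relative, so that a gain of COL1A1 lowers the share of every other member.

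Ratios of chains that assemble together were computed within each library, where sample-wide scaling cancels out. The COL1A1 to COL1A2 ratio was 0.2496, 0.343 and 0.274 in the undifferentiated group and 1.35, 0.667 and 1.21 in the somatic differentiated group. The lowest somatic ratio was above the highest undifferentiated one, and the mean log2 ratio differed by 1.85 (-1.80 ± 0.24 and 0.04 ± 0.55, SD, n = 3). The exact permutation p was 0.1, the smallest possible for a two-sided test at 3 against 3, and 0.6 after Benjamini-Hochberg adjustment over the 6 ratios. By contrast, the COL4A1 to COL4A2 ratio lay between 0.914 and 1.19 in all 6 libraries, although both levels varied widely between libraries. Its groups overlapped, and the difference was -0.06 on the log2 scale (exact permutation p = 0.7, adjusted 0.7).

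Other partner chains gave overlapping groups. The COL5A1 to COL5A2 ratio was 0.308, 0.253 and 0.271 and then 0.392, 0.175 and 0.186, so COL5A2 exceeded COL5A1 throughout (log2 difference -0.24, exact permutation p = 0.5, adjusted 0.6). The COL6A1 to COL6A2 ratio was 3.27, 2.05 and 2.604 and then 1.25, 1.07 and 2.53, lower in somatic differentiated libraries 1 and 2 only (log2 difference -0.79, exact permutation p = 0.2, adjusted 0.6). COL6A3 to COL6A1 stayed within 0.556 to 0.927 (log2 difference 0.27, exact permutation p = 0.3, adjusted 0.6). COL8A1 to COL8A2 was 0.2104, 0.288 and 0.152 and then 1.49, 0.952 and 0.0599, on both sides of the undifferentiated values (log2 difference 1.07, exact permutation p = 0.5, adjusted 0.6, and between 0.19 and 2.51 with a library left out).

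**Figure D4:**
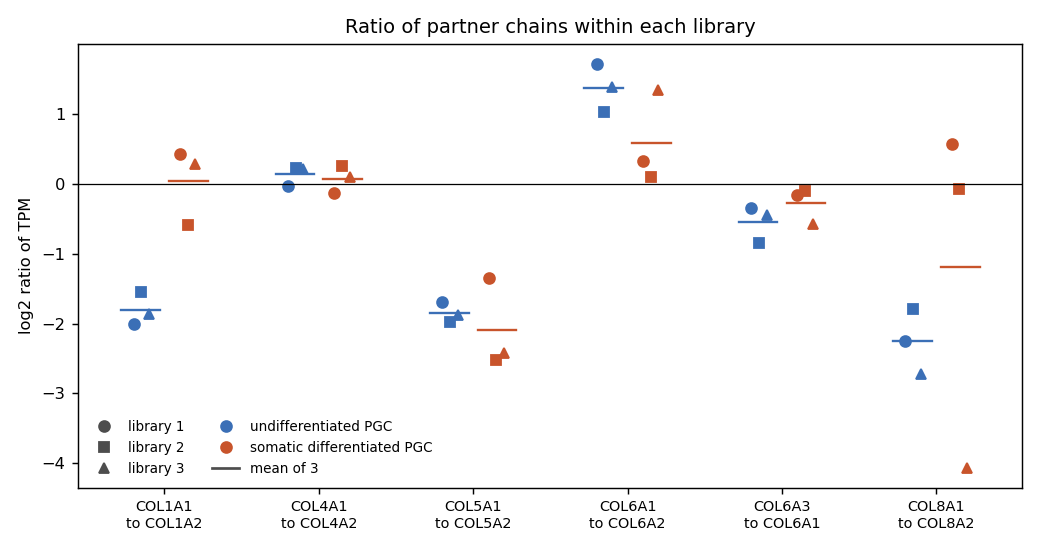
Log2 ratio of the TPM of partner chains within each library; points are libraries and horizontal lines the mean of 3. The COL1A1 to COL1A2 ratio is the only one of the 6 whose groups are apart (-2.002 to -1.54 and -0.58 to 0.43), while COL4A1 to COL4A2 stays near 0 in every library.

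Somatic differentiated libraries differed widely among themselves in collagen level, which is described here without a test. For the 16 collagens called higher, the highest somatic value was 2.94 times the lowest in the median (range 1.199 to 5.801), against 1.702 for all genes called higher. In undifferentiated libraries the corresponding medians were 1.51 and 1.6001. Library 3 was the highest of the somatic libraries for 8 of the 16, namely COL1A1, COL1A2, COL5A1, COL5A2, COL6A1, COL12A1, COL18A1 and COL26A1. Library 1 was the highest for COL4A1, COL4A2, COL6A2, COL6A3 and COL9A3, and library 2 for COL3A1, COL8A1 and COL13A1. Library 2 was the lowest for 9 of the 16.

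Marker levels also differed between the somatic libraries. The 6 PGC markers summed to 1499.5, 2129 and 1631 TPM in somatic differentiated libraries 1 to 3, and each was highest in library 2. Fibroblast and mesenchyme markers summed to 719, 631 and 594 TPM in the same order. Beside the calls given here, 13.2% of all tested genes were called higher and 7.77% lower. The 4 osteoblast markers listed summed to 81.2, 129 and 651 TPM in that order of libraries, while undifferentiated sums were 65.5 to 76.6 TPM. All 4 were tested and RUNX2 was called higher. BGLAP alone gave 579.75 TPM of the sum in library 3. The 4 chondrocyte markers listed summed to 75.6, 190.2 and 171 TPM against 22.7 to 33.5 TPM, with ACAN called higher among 3 tested, and MATN1 at 0.103 and 0.632 TPM in the group means. Endothelial markers summed to 24.98, 98.4 and 36.8 TPM against 10.4 to 18.9 TPM, with CDH5 called higher, KDR called lower and VWF at 0.115 TPM or less in every library. CDH5 alone gave 12.5, 91.0 and 31.9 TPM of the somatic sums. TEK and TIE1, under 1 TPM and not tested, were lower in the somatic mean, and PECAM1 stood at 5.90 and 6.50 TPM in the group means. Neural crest and glia markers summed to 125, 96.02 and 151 TPM against 52.9 to 66.9 TPM, with none of the 4 tested called. FOXD3 gave 47.5, 86.6 and 125 TPM of the somatic sums, and SOX10 gave 53.0, 2.73 and 7.84 TPM. Epithelial markers summed to 158 to 271 TPM against 927 to 1470.3 TPM, with all 3 tested called lower. Nearly all of that sum was EPCAM, at 973, 1446 and 899 TPM in undifferentiated libraries 1 to 3. Muscle markers summed to 2.62 to 7.18 TPM against 9.22 to 15.5 TPM. The part that any of these cell types has in the collagen levels was not tested.

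**Figure D5:**
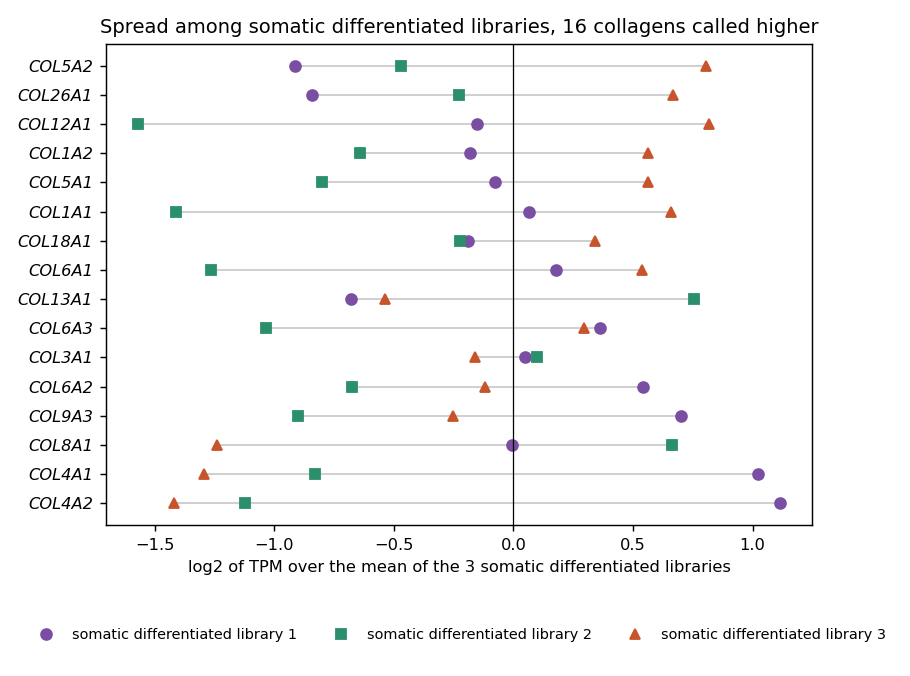
For the 16 collagens called higher, log2 of the TPM in each somatic differentiated library over the mean of the 3. COL4A1 and COL4A2 have library 1 far to the right, while COL5A2, COL26A1, COL12A1, COL1A2, COL5A1, COL1A1, COL18A1 and COL6A1 have library 3 furthest right.

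The positions of the genes were examined, because some collagens are neighbours. Chromosome 7 holds 6 of the 26, among them COL5A2 beside COL3A1, and COL18A1, COL6A1 and COL6A2 in a row with gaps of 60063 and 21697 bases. All 6 were called higher. The nearest tested genes on either side of the collagens that are not collagens numbered 46, of which 6 were called higher and 6 lower. That is 13.04% called higher, where 13.2% of all tested genes were, and their median change was -0.20. Between COL18A1 and COL6A1 lies SLC19A1, 1023 bases from COL18A1, with a change of 0.04.

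Other genes of collagen synthesis, binding and turnover were described from lists of 92 genes in the table, of which 83 were tested. With limma, 51 of the 83 (61.4%) were called higher and 0 lower. The called genes include OGN and ADAMTS2, which averaged under 1 TPM in undifferentiated cells (0.267 and 0.948 TPM). They passed the abundance filter only through their somatic differentiated level (7.84 and 8.28 TPM), so their calls are not independent of that filter. Of all tested genes, 13.2% were called higher and 7.77% lower. The lists were chosen with earlier results of these data known, so this contrast is description only. At an unadjusted p under 0.05, 60 were higher and 3 lower. The share of all genes at that unadjusted threshold was not computed, so no conclusion is drawn from these counts. Chain folding and hydroxylation genes had 14 of 21 called higher, with a median of 1.19. For this and the lists below, the median over all genes tested was -0.11. Among these, CREB3L1, a membrane-bound transcription factor of secretory cells, rose from 3.15 ± 0.365 to 38.8 ± 25.0 TPM (3.09), and the lysyl hydroxylase gene PLOD1 from 19.9 ± 3.098 to 163 ± 97.0 TPM (2.79; SD, n = 3 here and below). SERPINH1, the collagen chaperone HSP47, rose from 92.8 ± 11.5 to 487 ± 106 TPM (2.36). P4HB, a subunit of prolyl hydroxylase, stood at 559.5 ± 12.9 and 858 ± 84.3 TPM (0.61, limma adjusted p 0.00494, under the minimum change), and FKBP14 at 78.5 ± 4.955 and 55.9 ± 19.4 TPM (-0.54, limma adjusted p 0.12).

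Propeptide processing and crosslinking genes had 9 of 13 called higher (13.2% of all tested genes were), with a median of 1.74. Lysyl oxidases, which crosslink collagen, led this list: LOX rose from 6.93 ± 0.842 to 117.5 ± 105 TPM (3.54), LOXL3 from 9.37 ± 2.34 to 99.9 ± 35.8 TPM (3.25) and LOXL2 from 1.21 ± 0.288 to 15.6 ± 12.8 TPM (2.42). Leaving out somatic differentiated library 3 gave 2.84 for LOX. LOXL2 (limma adjusted p 0.0404) stayed called on leaving out somatic differentiated library 2, with a change of 3.37. It missed the threshold on leaving out any other library (0.0785, 0.0857 and 0.0973 for undifferentiated libraries 1 to 3, 0.102 and 0.123 for somatic differentiated libraries 1 and 3), with a change of 1.79 without somatic differentiated library 1. LOXL2 also missed it with a pseudocount of 5 (0.057) and with no filter on low values (0.0662). PCOLCE2 stood at 31.7 ± 2.16 and 35.6 ± 20.2 TPM (0.03, with a sign that varied by setting) and ADAMTS14 at 5.77 ± 1.74 and 15.3 ± 12.1 TPM (1.06, limma adjusted p 0.127). Enzymes that cleave collagen had 6 of 8 called higher (13.2% of all tested genes were), with a median of 2.77. The gelatinase genes rose, MMP2 from 32.005 ± 1.97 to 509 ± 87.9 TPM (3.94) and MMP9 from 15.5 ± 1.53 to 319.8 ± 291 TPM (3.79). So did FAP, a protease of activated fibroblasts, from 9.41 ± 3.05 to 141 ± 83.3 TPM (3.58). Leaving out a somatic differentiated library gave 3.046 (library 1) and 4.58 (library 2) for MMP9, and 4.19 (library 1) for FAP, so the order of these genes by change depended on the libraries used. MMP15 stood at 203 ± 6.42 and 197 ± 49.5 TPM (-0.07, with a sign that varied by setting), and MMP13 at 0.194 ± 0.0868 and 3.28 ± 3.13 TPM (1.51, limma adjusted p 0.0799). MMP13 was called without somatic differentiated library 2 (2.197, adjusted p 0.00792) and with array weights (1.42, 0.0323).

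Collagen receptors had 5 of 9 called higher (13.2% of all tested genes were), with a median of 1.98. DDR2, the discoidin domain receptor of fibrillar collagens, rose from 3.02 ± 0.677 to 29.9 ± 11.04 TPM (2.90), and MRC2, an endocytic collagen receptor, from 19.2 ± 4.47 to 111 ± 48.0 TPM (2.42). ITGA11, the integrin subunit that binds type I collagen, rose from 6.36 ± 3.07 to 58.2 ± 50.7 TPM (2.61, limma adjusted p 0.0282). ITGA11 missed the threshold on leaving out undifferentiated library 1 (0.0754), undifferentiated library 2 (0.0677), somatic differentiated library 2 (0.0774) or somatic differentiated library 3 (0.0655), and with array weights (0.0626). Its change was 3.44 without somatic differentiated library 1 and 1.902 without library 3. Its partner ITGB1 stood at 479 ± 79.0 and 889.8 ± 149 TPM (0.89, limma adjusted p 0.00727, under the minimum change, but 1.01 and called with median of ratios scaling) and DDR1 at 38.5 ± 4.79 and 56.4 ± 13.3 TPM (0.52, limma adjusted p 0.0784).

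Proteins that associate with collagen fibrils or networks had 11 of 14 called higher (13.2% of all tested genes were), with a median of 2.59. TNC, the adhesion-modulating glycoprotein tenascin C, rose from 78.1 ± 11.7 to 1141.5 ± 561 TPM (3.75), followed by MATN2, from 13.6 ± 0.441 to 177 ± 44.4 TPM (3.58), and the fibril-binding proteoglycan gene DCN, from 10.002 ± 1.24 to 180.8 ± 141 TPM (3.55). Without somatic differentiated library 1 the change of DCN was 2.9005, and without library 3 it was 4.501. TGFBI at 81.8 ± 3.33 and 379 ± 457 TPM (1.46, limma adjusted p 0.167) and NID1, the basement membrane linker nidogen, at 59.3 ± 20.2 and 109 ± 52.9 TPM (0.77, limma adjusted p 0.197) were not called. The TGFBI change was 2.08 without somatic differentiated library 2 and 0.47 without library 3, and NID1 was called without library 3 (1.26, adjusted p 0.0219). Transcription factors known to act on collagen genes had 7 of 19 called higher (13.2% of all tested genes were), with a median of 0.99. EGR1, from 25.8 ± 1.58 to 354 ± 102 TPM (3.69), and TWIST1, from 2.13 ± 0.274 to 28.9 ± 9.63 TPM (3.22), rose, as did CREB3L1, which belongs to this list too. CBFB stood at 169.8 ± 8.15 and 349.7 ± 107 TPM (0.99, limma adjusted p 0.0144) and NFYC at 176 ± 26.7 and 148 ± 6.46 TPM (-0.24, limma adjusted p 0.206), and neither was called. CBFB was just under the minimum change and passed it without undifferentiated library 3 (1.02) or somatic differentiated library 1 (1.26), and with median of ratios scaling (1.11) or quantile normalization (1.102).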

How the data were processed

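PolyA RNA was measured in 6 chicken libraries, 3 per group, numbered by their titles. The authors deposited 1 table of gene TPM values, in which each library sums to 1000000. Per the submitters' processing notes, the build was GRCg6a and the tools included STAR 2.7.3a and RSEM 1.3.1. The sources used here give neither the annotation release nor the strand setting. TPM keeps no depth, so no counting error or floor was computed, and the p-values measure the spread between libraries, which no label ties to separate animals. Of the value columns, 0 were left unmapped.

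Log2(TPM + 1) values were fitted in R 4.3.3 with limma 3.58.1, using a variance trend, over the 12996 genes whose mean over the 6 libraries reached 1 TPM. P-values were adjusted over all of these by Benjamini-Hochberg. A gene was called at an adjusted p under 0.05 and a log2 change of at least 1 in either direction. Sums per class and ratios of chains were compared with two-sided exact permutation tests. Python 3.11.15, pandas 2.3.3 and matplotlib 3.10.9 were used for tables and plots. On simulated data with 12996 genes, 5 runs recovered 71.5% to 80.5% of 200 genes changed by 2 on the log2 scale, with 2 to 6 false calls. The simulated noise was independent between genes, and 2731 genes were called in the real data. These rates therefore do not carry over to the real calls.

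Members and lists were chosen with earlier results of these data known. Each collagen at 10 TPM in a group mean, or called, is given by library. From each further list, up to 3 called genes per direction are named by size of change, with the 2 most abundant genes not called. Further genes of these lists are named only where the filter or a setting concerns them. A symbol missing from the table was sought among RefSeq synonyms (assembly GRCg7b), whose coordinates were not used. Alternatives changed the pseudocount, filter, scaling, variance model, weights, minimum change, replicate block and libraries. The labels name no batch.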

Additional observations from a re-analysis of the deposited data

How the results depend on the processing

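Over the 16 alternatives, 13 to 17 collagens were called higher, including 13 to 16 of the 16 reported, and COL9A2 was the only one called lower in each. The calls lost in some settings were those of COL4A1, COL4A2 and COL26A1, and COL13A1 was not tested at a mean TPM of at least 5; COL8A2 or COL25A1 was gained in others. With no filter on low values, COL4A1 and COL4A2 had limma adjusted p of 0.052 and 0.0714, and COL4A2 missed the threshold with a pseudocount of 5 (0.0537) and with no variance trend (0.0551). A pseudocount of 5 lowered COL8A1 to 1.58 and COL13A1 to 1.01, and array weights lowered COL26A1 to 1.14. Counts over all genes moved with the setting too. Of 12996 genes tested, 1190 were called higher with a pseudocount of 5, 1721 in the main fit and 2331 with no minimum change. The remaining alternatives gave counts between 1190 and 2331. The other pathway genes had 44 to 54 called higher. With no minimum change 1 of them, PREB, was lower, and leaving out libraries gave 0 to 1, the 1 being SCX without somatic differentiated library 1. Median of ratios scaling moved all genes together, with a median change of 0.005 in place of -0.11. Each of the 16 collagens was called under it, where 2024 of all 12985 genes tested were called higher. The FACIT sum then had an exact permutation p of 0.2.

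The COL4A1 to COL4A2 difference lay between -0.155 and 0.0375 with a library left out. Genes not called changed sign in some settings. COL14A1 was at 0.13 with array weights and at -0.73 to 0.35 with a library left out. COL22A1 was at -0.0092 with quantile normalization and at -0.51 to 0.61 with a library left out. MMP15 was at 0.0441 with median of ratios scaling, at 0.0325 with quantile normalization and at -0.24 to 0.13 with a library left out. PCOLCE2 was at -0.0311 with quantile normalization, at -0.17 with array weights and at -0.39 to 0.31 with a library left out. The cause of these changes was not tested.

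Same-numbered libraries deviated from their group means with correlations of 0.192, 0.0131 and 0.14, and differently numbered ones with -0.256 to 0.112. These values do not settle whether the numbers pair the libraries. The labels state no pairing, so none was used in the main fit. With the replicate block, 17 collagens were called higher, COL8A2 being added (limma adjusted p 0.0315), and 52 of the other pathway genes. Of all 12996 genes tested, 1793 were called higher with it. TPM keep no depth, so levels under 1 TPM may rest on few reads.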
